A study of Mus musculus with 16 samples.

Results

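The 30 genes described here mark microglia, the resident macrophages of the brain, and the macrophages at its borders. They were given as a list of gene symbols with no threshold on any value, and each symbol matched 1 of the 53801 gene identifiers of the count table. The 16 RNA libraries came from 9 mice of the mixed strain C57BL6/J-129sv, aged 10 days, with 4 libraries for each genotype in the cortex and in the striatum. Control mice were Trrap Fl/+; Camk2-Cre tg, with 1 floxed allele of Trrap, the gene of a scaffold protein of histone acetyltransferase complexes. Trrap-FBΔ mice were Trrap Fl/Fl; Camk2-Cre tg, so that both groups carried the Cre transgene and no group lacked the floxed allele. The Camk2 promoter is active in glutamatergic neurons of the forebrain, a cell type that does not include microglia. The study's methods name this line with a tamoxifen-inducible form of Cre, and an induction of these mice is not given in the sources used here. Mice 55, 58, 63 and 64 gave the control cortices, mice 58, 63, 64 and 65 the control striata, and mice 57, 59, 60 and 61 both tissues of the Trrap-FBΔ group.

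Microglia arise from yolk sac progenitors, settle in the brain before birth and multiply in the first weeks of life. Resting, or homeostatic, microglia sense ATP and ADP through purinergic receptors, receive the survival signals CSF1 and IL-34 through the receptor CSF1R and the neuronal chemokine CX3CL1 through CX3CR1. They also tag synapses with complement C1q, and they engulf debris and synaptic material with receptors that signal through the adaptor TYROBP. In activated microglia the homeostatic genes usually fall, while lysosomal and lipid-handling genes rise.

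The libraries held between 28743866 and 48761429 counted reads. The study reports that Trrap was efficiently deleted in Trrap-FBΔ brains at the age used here, and refers to protein blots and qPCR for this. In the RNA libraries, however, Trrap RNA did not separate the groups at the level of whole-gene counts. In the cortex it stood at 153 ± 15.6 CPM (counts scaled to the size of the library, mean ± SD, n = 4) in controls and 135 ± 10.3 CPM in Trrap-FBΔ mice, a log2 fold change of -0.18 (adjusted p = 0.083). In the striatum it stood at 146 ± 5.73 and 141 ± 5.88 CPM (log2 fold change -0.044, adjusted p = 0.52), and the groups below follow the labels. All 8 marker genes of cortical excitatory neurons were lower in the striatum than in the cortex. The 10 markers of striatal projection neurons did not separate the tissues as a set, with 3 higher and 2 lower in the striatum. Their summed level was 351 to 832 CPM in the control cortices and 278 to 1272 CPM in the control striata. Males numbered 2 of 4 in the control cortices, 3 of 4 in the control striata and 1 of 4 in each Trrap-FBΔ tissue.

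The promoters of 3 members are shown first. P2ry12 and P2ry13 are neighbours that were among the members with the largest falls. Itgam fell by a similar amount, and its window holds 3 matches to a myeloid motif. P2ry13 (chromosome 3, 59207892 to 59210882) and P2ry12 (chromosome 3, 59216272 to 59262871) lie 5389 bases apart on the minus strand. Itgam lies on the plus strand of chromosome 7, at 128062640 to 128118491. Each sequence runs 5′ to 3′ in the direction of the gene, from 250 bases before to 50 bases after the RefSeq start (GRCm38.p6). Capitals mark GAGGAA, the core of the motif of the myeloid transcription factor PU.1, or its reverse complement TTCCTC.
P2ry12 (chr3:59262936-59263235, minus strand): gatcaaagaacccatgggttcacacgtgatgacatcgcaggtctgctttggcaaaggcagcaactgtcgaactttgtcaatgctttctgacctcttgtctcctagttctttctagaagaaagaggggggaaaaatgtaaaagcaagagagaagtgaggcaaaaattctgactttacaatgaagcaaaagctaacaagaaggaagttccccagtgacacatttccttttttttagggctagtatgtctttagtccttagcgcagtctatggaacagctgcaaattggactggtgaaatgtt
P2ry13 (chr3:59210833-59211132, minus strand): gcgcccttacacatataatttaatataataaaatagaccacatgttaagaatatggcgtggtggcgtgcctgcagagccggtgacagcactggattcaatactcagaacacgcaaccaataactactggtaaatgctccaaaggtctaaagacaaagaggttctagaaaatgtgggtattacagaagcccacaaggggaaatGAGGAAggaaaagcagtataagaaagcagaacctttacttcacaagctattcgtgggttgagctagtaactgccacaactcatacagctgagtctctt
Itgam (chr7:128062390-128062689, plus strand): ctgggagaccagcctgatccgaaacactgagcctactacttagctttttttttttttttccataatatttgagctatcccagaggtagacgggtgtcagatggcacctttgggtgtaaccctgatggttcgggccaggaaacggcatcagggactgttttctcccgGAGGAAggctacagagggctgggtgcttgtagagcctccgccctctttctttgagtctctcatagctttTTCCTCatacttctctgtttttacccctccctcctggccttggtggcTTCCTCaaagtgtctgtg

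The window of P2ry12 held no match, that of P2ry13 held 1 and that of Itgam held 3. Promoter windows matched 22 of the 30 members. Those not matched were Tmem119, Csf1r, Gpr34, Selplg, C1qa, Tyrobp, Unc93b1 and Spi1. GAGGAA on either strand was found in 14 of these 22 members (63.6%), namely Aif1, C1qb, C1qc, Cd53, Cd68, Ctss, Fcrls, Itgam, Laptm5, Mrc1, P2ry13, Ptprc, Siglech and Trem2, and in 31.3% of the 27025 genes with a window. The GC box GGGCGG, the motif of Sp1, was found in 8 of 22 members (36.4%) and in 38.2% of all genes, and neither motif contains the other. Of the 13 members that were lower in both tissues, 9 had a window, 6 of them with GAGGAA and 2 with GGGCGG. These matches describe letters in a window and not bound sites.

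In control tissue the members spanned a wide range of levels when compared per length, as CPM per kb of merged exons. P2ry12 was the highest of the 30 in both tissues, with 33.9 CPM per kb in the cortex and 26.7 CPM per kb in the striatum. C1qa (25.5 CPM per kb) and C1qb (24.8) followed in the cortex and changed places in the striatum (21.9 and 22.5), so that the order of this pair was within the spread of the mice. Ctss, Tyrobp and C1qc came next with 19.2, 16.2 and 14.6 CPM per kb in the cortex. Itgam, Irf8 and Ptprc were the lowest, with 0.907, 0.745 and 0.243 CPM per kb there. All 30 members passed the filter on low counts in every comparison, and the lowest count of any member in any library was 93 reads, for Lyz2.

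**Figure D1:**
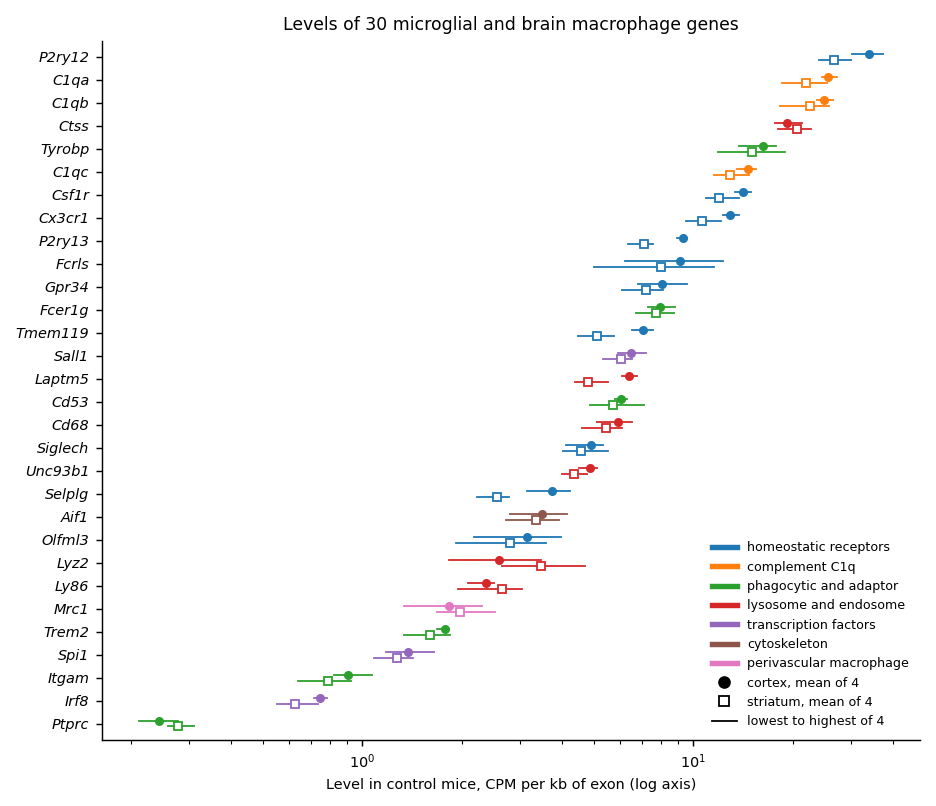
Level of each member in the control mice, in CPM per kb of exon on a log axis, with circles for the mean of 4 cortices, squares for the mean of 4 striata and lines from the lowest to the highest mouse; colours give the role of the gene. P2ry12 stands highest and Ptprc lowest in both tissues, and Fcrls has one of the widest ranges.

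The first comparison asked which of these genes differed in the cortex between the labelled genotypes. In the cortex 21 of 30 members (70.0%) were lower in Trrap-FBΔ mice and none was higher, at a Benjamini-Hochberg adjusted p under 0.05 with edgeR's quasi-likelihood test. Of all 18268 genes tested, 33.3% passed this threshold, 17.6% being lower and 15.7% higher. The median log2 fold change was -0.36 over the members and 0.0010 over all genes tested. Without regard to the threshold, 26 members had a negative and 4 a positive log2 fold change. In 17 members the 4 Trrap-FBΔ cortices all lay below the 4 control cortices, against 16.7% of all genes. In bulk tissue, fewer microglia and less RNA of these genes per cell cannot be told apart.

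In the striatum 13 of 30 members (43.3%) were lower and none was higher. There 30.2% of 18872 genes passed, 15.8% being lower and 14.4% higher. The median log2 fold change of the members was -0.32, against -0.0055 over all genes, and 27 members had a negative sign. The groups did not overlap, with all Trrap-FBΔ striata lower, in 12 members and in 16.0% of all genes. All 13 genes lower in the striatum were also lower in the cortex, and 10.5% of the 17938 genes tested in both tissues were lower in both. The tissues share mice, so that they are not independent.

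Summed over the 30 members, their level was 629, 628, 659 and 597 CPM in the control cortices of mice 55, 58, 63 and 64. The Trrap-FBΔ cortices of mice 57, 59, 60 and 61 summed to 536, 444, 482 and 469 CPM. In the striatum the sums were 488, 581, 602 and 510 CPM in control mice 58, 63, 64 and 65 and 451, 427, 440 and 427 CPM in the same 4 Trrap-FBΔ mice. The genotypes did not overlap in either tissue. Mouse 57 had the highest value of the 4 Trrap-FBΔ cortices for 18 of 30 members and mouse 59 the lowest for 16. Among control striata, mouse 64 was highest for 15 members and mouse 58 lowest for 16.

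**Figure D2:**
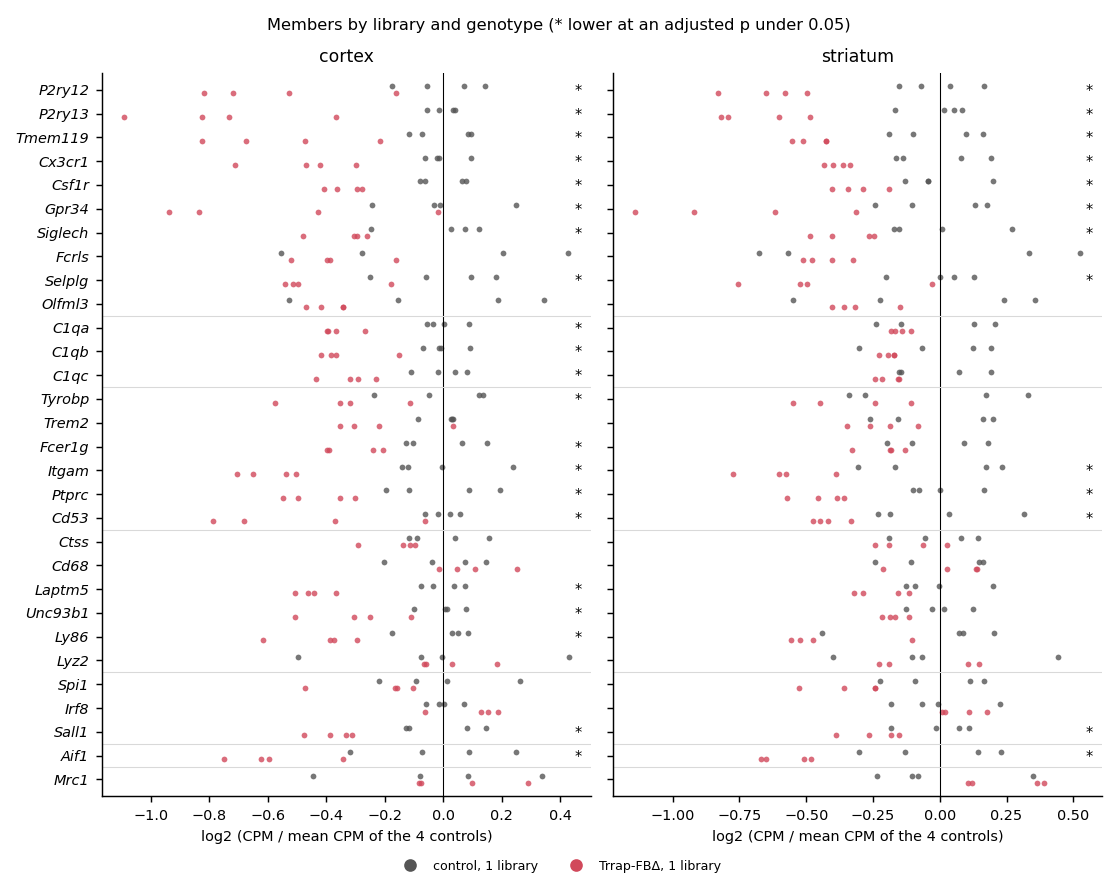
Every library as log2 of its CPM over the mean CPM of the 4 controls of the same tissue, with members in rows grouped by role (grey, control; red, Trrap-FBΔ). Asterisks mark the 21 members lower in the cortex and the 13 lower in the striatum; the red points lie left of the grey ones for most homeostatic receptors and among them for Cd68, Lyz2, Irf8 and Mrc1.

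The first role holds 10 genes for receptors and other surface or secreted proteins of homeostatic microglia. In each tissue 8 of them were lower, all but Fcrls and Olfml3, and all 10 had a negative log2 fold change (median -0.45 in the cortex and -0.43 in the striatum). P2ry13, a receptor for ADP, stood at 22.6, 23.3, 24.1 and 24.2 CPM in the control cortices and at 18.2, 11.1, 14.2 and 13.3 CPM in the Trrap-FBΔ cortices. Every Trrap-FBΔ cortex was lower than every control, and mouse 57 was the nearest to them. The log2 fold change was -0.73 (SE 0.12, adjusted p = 0.00098), the largest fall of any member in the cortex. In the striatum P2ry13 went from 16.0, 18.7, 19.0 and 18.2 CPM to 12.8, 11.8, 10.4 and 10.2 CPM, again without overlap (log2 fold change -0.67, SE 0.09, adjusted p = 0.00066).

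P2ry12, the ADP receptor that guides the processes of microglia towards injury, stood at 95.3, 83.1, 90.7 and 76.5 CPM in control cortices. The Trrap-FBΔ cortices had 77.2, 52.5, 59.9 and 48.9 CPM, so that mouse 57 lay just above the lowest control while the other 3 lay below all of them. Its log2 fold change was -0.54 (SE 0.12, adjusted p = 0.0069). The striatal values were 61.05, 76.0, 69.7 and 64.7 CPM in controls and 48.1, 45.4, 43.3 and 38.2 CPM in Trrap-FBΔ mice, with no overlap (log2 fold change -0.63, SE 0.08, adjusted p = 0.00062).

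Gpr34, a receptor for lysophosphatidylserine on the X chromosome, had the largest fall of any member in the striatum. Control striata held 12.7, 17.0, 16.5 and 14.0 CPM and Trrap-FBΔ striata 12.1, 7.95, 9.81 and 6.82 CPM (log2 fold change -0.71, SE 0.16, adjusted p = 0.0093). The cortical values overlapped, at 20.0, 16.4, 16.7 and 14.2 CPM against 16.6, 9.44, 12.5 and 8.78 CPM (log2 fold change -0.51, SE 0.18, adjusted p = 0.047). Mouse 57 was again the highest Trrap-FBΔ animal in both tissues. The cortical call was lost without any 1 of control mice 55, 58 and 63 or Trrap-FBΔ mice 59, 60 and 61, with adjusted p values up to 0.13.

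Tmem119, a membrane protein used to tell microglia from other macrophages, fell from 16.3 ± 1.22 CPM in control cortices to 11.3 ± 2.10 CPM in those of Trrap-FBΔ mice. Its striatal level went from 11.9 ± 1.36 to 8.52 ± 0.381 CPM. The log2 fold changes were -0.53 (SE 0.11) and -0.48 (SE 0.09), with adjusted p values of 0.0048 and 0.0032, and the genotypes did not overlap in either tissue. Selplg, the ligand of P-selectin, lies 18019 bases from Tmem119 on chromosome 5. It fell by 0.43 and 0.42 on the log2 scale (adjusted p = 0.0093 and 0.044), and mouse 57 overlapped with the controls in both tissues. The striatal call on Selplg was lost without any 1 of 6 libraries, control mice 58, 63 and 64 or Trrap-FBΔ mice 59, 60 and 61 (adjusted p up to 0.11).

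Cx3cr1, the receptor for the neuronal chemokine, stood at 57.1, 57.4, 61.8 and 55.5 CPM in control cortices and at 47.1, 35.4, 41.9 and 43.2 CPM in Trrap-FBΔ cortices. In the striatum it stood at 42.7, 50.5, 54.7 and 43.5 CPM in controls and within 35.5 to 37.9 CPM in Trrap-FBΔ mice. Both differences were without overlap, with log2 fold changes of -0.47 (adjusted p = 0.0011) and -0.38 (adjusted p = 0.0054). Csf1r, the receptor that keeps microglia alive, had the lowest SE of the members in the cortex, at 0.05. It fell by 0.34 on the log2 scale there, from 81.7 ± 4.61 to 64.7 ± 2.69 CPM (adjusted p = 0.00059), and by 0.30 in the striatum, from 69.2 ± 7.10 to 56.0 ± 3.54 CPM (adjusted p = 0.012). Siglech, a lectin for sialic acid, fell by 0.33 and 0.35 (adjusted p = 0.013 and 0.030). Its striatal call was lost without control mouse 64 or Trrap-FBΔ mice 57 or 61 (adjusted p up to 0.079).

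Fcrls and Olfml3 were the 2 genes of this role that passed in neither tissue with edgeR, and both split the control mice. Fcrls, an Fc receptor-like scavenger receptor on chromosome 3 (87250758 to 87263738), stood at 17.5 and 14.5 CPM in the cortices of control mice 55 and 58 but at 28.6 and 24.6 CPM in those of mice 63 and 64. In the striatum it was 11.7 and 12.6 CPM in mice 58 and 65 and 26.9 and 23.5 CPM in mice 63 and 64. The Trrap-FBΔ values lay between 13.1 and 19.0 CPM in both tissues, close to the lower controls. Its log2 fold changes were -0.36 (SE 0.18, adjusted p = 0.14) and -0.43 (SE 0.24, adjusted p = 0.20).

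Olfml3, a secreted protein coded farther along chromosome 3 (103722222 to 103738001), split the controls likewise. Its cortical levels were 13.4, 17.4, 24.5 and 22.0 CPM in control mice 55, 58, 63 and 64, and its striatal levels 11.8, 20.4, 22.1 and 14.8 CPM in mice 58, 63, 64 and 65. Mice 63 and 64 were thus the highest in both tissues, and the Trrap-FBΔ values were 13.04 to 15.6 CPM. The log2 fold changes were -0.40 (adjusted p = 0.055) and -0.31 (adjusted p = 0.20). Ctss lies between these genes and did not divide the controls in this way in the cortex, with 24.5, 26.7, 29.0 and 24.0 CPM in mice 55, 58, 63 and 64. In the striatum mice 63 and 64 both lay above mice 58 and 65 in 21 of the 30 members. In the cortex they both lay above mice 55 and 58 in 5 of the 30. The share of all genes that split the controls in this way was not computed. The same striata also differed in the summed level of 10 oligodendrocyte lineage genes, in the opposite order. It was 3326 and 4483 CPM in mice 63 and 64 and 9052 and 6777 CPM in mice 58 and 65. A link between these differences was not tested. In both tissues mice 63 and 64 lay above the other controls in 4 members, Fcrls, Olfml3, C1qa and P2ry13. In the cortex Olfml3 was lower with DESeq2 (adjusted p = 0.026), and both genes were lower in the fit with no filter on low counts (adjusted p = 0.043 for Fcrls and 0.011 for Olfml3). Leaving out control mouse 58 brought Fcrls past the threshold in the cortex (adjusted p = 0.022) and Olfml3 in the striatum (adjusted p = 0.029), and leaving out control mouse 55 did so for Olfml3 in the cortex (adjusted p = 0.0035).

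**Figure D3:**
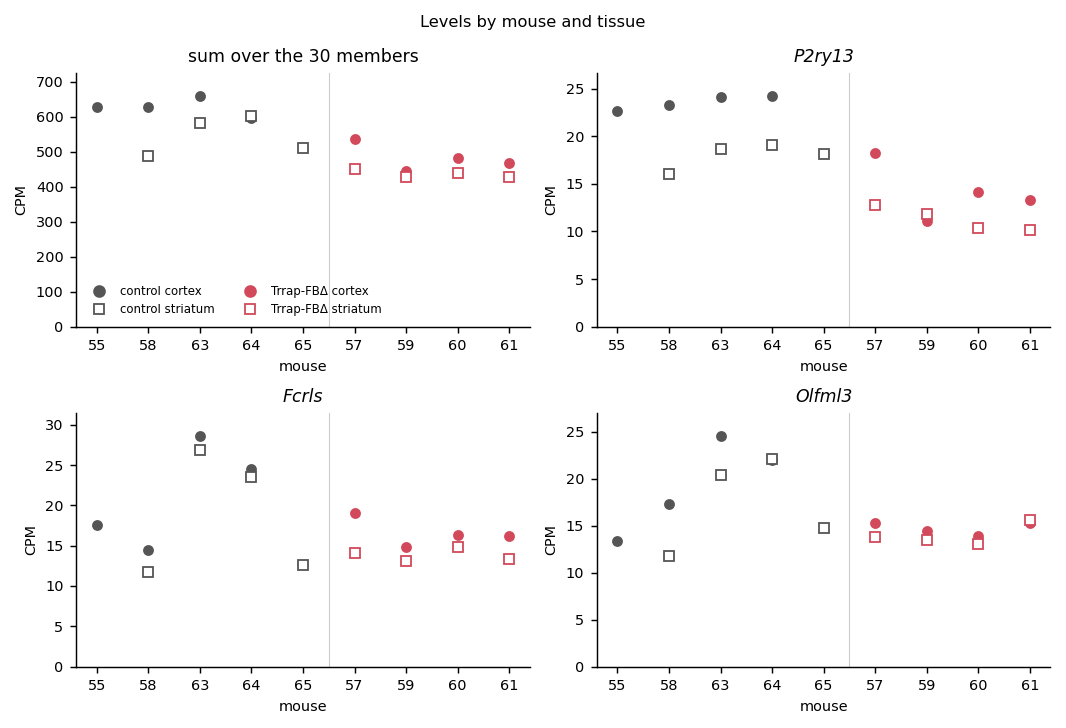
CPM by mouse for the sum over the 30 members, P2ry13, Fcrls and Olfml3, with filled circles for the cortex, open squares for the striatum, grey for controls (mice 55 to 65, left of the line) and red for Trrap-FBΔ mice (57 to 61, right). P2ry13 is lower in each Trrap-FBΔ mouse within each tissue, whereas for Fcrls and Olfml3 the values of Trrap-FBΔ mice lie near those of the lower controls; mice 63 and 64 stand above the other controls in both tissues for all 3 genes.

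C1qa, C1qb and C1qc code for the chains of C1q, the recognition molecule of the classical complement pathway, and lie side by side on chromosome 4 within 136880129 to 136898803. All 3 were lower in the cortex without overlap. C1qa went from 25.5, 25.9, 28.2 and 26.5 CPM to 22.0, 20.1, 20.2 and 20.6 CPM (log2 fold change -0.36, SE 0.06, adjusted p = 0.00097). C1qb and C1qc fell by 0.33 and 0.32 on the log2 scale (adjusted p = 0.0046 and 0.0036). None passed in the striatum with edgeR, DESeq2 or limma-voom, and 1, C1qc, had an unadjusted p under 0.05. There the log2 fold changes were -0.15, -0.19 and -0.19 with adjusted p values of 0.25, 0.15 and 0.097. There the control mice spread from 19.3 to 26.3 CPM for C1qa while the Trrap-FBΔ mice lay within 20.1 to 21.2 CPM, inside the range of the controls. C1qb passed in the striatum without control mouse 58 (adjusted p = 0.018).

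Among the 6 genes of phagocytic receptors, adaptors and leukocyte surface proteins, 5 were lower in the cortex and 3 in the striatum. Itgam, the CD11b chain of complement receptor 3, stood at 4.53, 5.37, 4.13 and 4.19 CPM in control cortices and at 3.14, 2.79, 3.21 and 2.90 CPM in Trrap-FBΔ cortices. The striatal levels were 4.47, 3.54, 3.21 and 4.66 CPM against 2.32, 3.03, 2.61 and 2.67 CPM. Neither pair of groups overlapped, and the log2 fold changes were -0.60 (SE 0.11, adjusted p = 0.0023) and -0.58 (SE 0.14, adjusted p = 0.012). In the annotation used here an exon of Itgam overlaps Gm49368 on the same strand, and reads that fall in both may not have been counted.

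Ptprc, which codes for the leukocyte phosphatase CD45, fell by 0.42 and 0.44 on the log2 scale (adjusted p = 0.017 and 0.0069), without overlap. Cd53, a tetraspanin of leukocytes, fell by 0.45 and 0.42 (adjusted p = 0.025 and 0.022), also without overlap. Cd53 lost its cortical call without control mouse 63 or Trrap-FBΔ mice 59 or 61 (adjusted p up to 0.078) and its striatal call without Trrap-FBΔ mice 57, 59 or 61 (adjusted p up to 0.056). The adaptor gene Tyrobp fell by 0.33 in the cortex (adjusted p = 0.039) and had a log2 fold change of -0.33 in the striatum too (adjusted p = 0.15), where control mice ranged from 7.91 to 12.6 CPM. Its cortical call was lost without any 1 of control mice 55, 58 and 63 or Trrap-FBΔ mice 59, 60 and 61 (adjusted p up to 0.11). Fcer1g, the common chain of activating Fc receptors, fell by 0.31 in the cortex (adjusted p = 0.023) and had -0.21 in the striatum (adjusted p = 0.15). The call on Fcer1g was lost without control mice 58 or 63 or Trrap-FBΔ mice 59 or 60 (adjusted p up to 0.079).

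Trem2, the lipid receptor that signals through the Tyrobp adaptor, passed in neither tissue. Its control cortices held 8.99, 8.97, 9.01 and 8.30 CPM and its Trrap-FBΔ cortices 9.02, 6.90, 7.57 and 7.13 CPM, so that mouse 57 lay at the top of the controls and the other 3 below all of them. The log2 fold changes were -0.20 (adjusted p = 0.11) and -0.22 (adjusted p = 0.18). Without mouse 57, Trem2 was lower in the cortex (adjusted p = 0.020).

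Of the 6 genes of lysosome and endosome proteins, 3 were lower in the cortex and none was lower in the striatum with edgeR. At an unadjusted p under 0.05, 3 were lower in the striatum, DESeq2 and limma-voom each called 1 of them there, Ly86, and the fit over all 16 libraries called Ly86 and Laptm5. Laptm5, a lysosomal membrane protein of blood-derived cells, stood at 23.0, 25.5, 24.9 and 23.6 CPM in control cortices and at 17.9, 17.6, 17.1 and 18.8 CPM in Trrap-FBΔ cortices. This gap had the smallest adjusted p of the members (log2 fold change -0.45, SE 0.06, adjusted p = 0.00026). In the striatum its groups overlapped, with 18.2, 17.1, 20.9 and 16.7 CPM against 16.8, 14.9, 14.6 and 16.4 CPM (log2 fold change -0.22, adjusted p = 0.076). Ly86, a partner of the Toll-like receptor homologue CD180, fell by 0.41 in the cortex (adjusted p = 0.0059) and had -0.41 in the striatum (adjusted p = 0.056), where Trrap-FBΔ mouse 59 was far above the other 3. Ly86 passed in the striatum without that mouse (adjusted p = 0.028) or without control mouse 58 (adjusted p = 0.0094). Unc93b1, which carries nucleic acid-sensing Toll-like receptors to endosomes, fell by 0.28 in the cortex (adjusted p = 0.024) and had -0.17 in the striatum (adjusted p = 0.086). Its cortical call was lost without control mice 55 or 58 or Trrap-FBΔ mice 59 or 60 (adjusted p up to 0.067), and it passed in the striatum without control mouse 65 (adjusted p = 0.049).

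The other 3 genes of this role had values near those of the controls. Cd68, a glycoprotein of phagocytic lysosomes, stood at 6.43, 7.81, 8.21 and 7.21 CPM in control cortices and at 7.34, 7.65, 7.99 and 8.82 CPM in Trrap-FBΔ cortices. The log2 fold change was 0.10 with a 95% interval from -0.09 to 0.28 in the cortex, and 0.03 with an interval from -0.20 to 0.25 in the striatum. Lyz2, lysozyme, had 0.04 (-0.29 to 0.37) and -0.03 (-0.37 to 0.30), and reads shared with its near-identical neighbour Lyz1 would not have been counted. For Ctss, the protease cathepsin S, the values were -0.16 (-0.31 to -0.01) and -0.11 (-0.28 to 0.05). The cortical range of Ctss leaves out 0, but the quasi-likelihood test gave an unadjusted p of 0.053. None of these 6 tests passed, with adjusted p values from 0.12 for Ctss in the cortex to 0.90 for Lyz2 in the striatum.

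Of the 3 transcription factors, Sall1 alone passed. Sall1, a zinc finger factor that maintains microglial identity and is also made by neural progenitors, fell by 0.38 in the cortex, from 36.1, 37.8, 31.4 and 31.2 CPM to 26.1, 24.5, 27.5 and 27.1 CPM (adjusted p = 0.0028). Its fall in the striatum was 0.24 (adjusted p = 0.035), with overlap in 1 control, mouse 63. The striatal call on Sall1 was lost without any 1 of control mice 58, 64 and 65 or Trrap-FBΔ mice 57, 59 and 60 (adjusted p up to 0.093). Spi1, which codes for PU.1, the master factor of myeloid cells, had log2 fold changes of -0.23 (adjusted p = 0.21) and -0.34 (adjusted p = 0.058), with all Trrap-FBΔ striata below all controls. It passed in the striatum without control mouse 65 (adjusted p = 0.034) and with all 16 libraries in 1 fit (adjusted p = 0.0495). Irf8, a factor of myeloid differentiation, had 0.10 (95% interval -0.07 to 0.27) in the cortex and 0.08 (-0.12 to 0.29) in the striatum.

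Aif1, which codes for the actin-binding protein IBA1 of microglial staining, fell by nearly the same amount in both tissues. Control cortices held 6.36, 5.09, 5.69 and 4.29 CPM and Trrap-FBΔ cortices 4.22, 3.18, 3.47 and 3.54 CPM (log2 fold change -0.56, SE 0.13, adjusted p = 0.0081). In the striatum 4.69, 5.66, 6.02 and 4.16 CPM stood against 3.61, 3.23, 3.68 and 3.27 CPM (log2 fold change -0.57, SE 0.13, adjusted p = 0.0076), with no overlap in either tissue. Mrc1, the mannose receptor of perivascular macrophages, went the other way without passing. Its striatal levels were 11.7, 10.7, 11.9 and 16.0 CPM in controls and 16.2, 13.6, 16.5 and 13.7 CPM in Trrap-FBΔ mice, a log2 fold change of 0.25 (95% interval 0.0044 to 0.50, adjusted p = 0.16). That interval leaves out 0, but the quasi-likelihood test gave an unadjusted p of 0.073. Control mouse 65 alone lay among the Trrap-FBΔ values, and without it Mrc1 was higher (adjusted p = 0.016). The cortical log2 fold change of Mrc1 was 0.07 (adjusted p = 0.74).

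**Figure D4:**
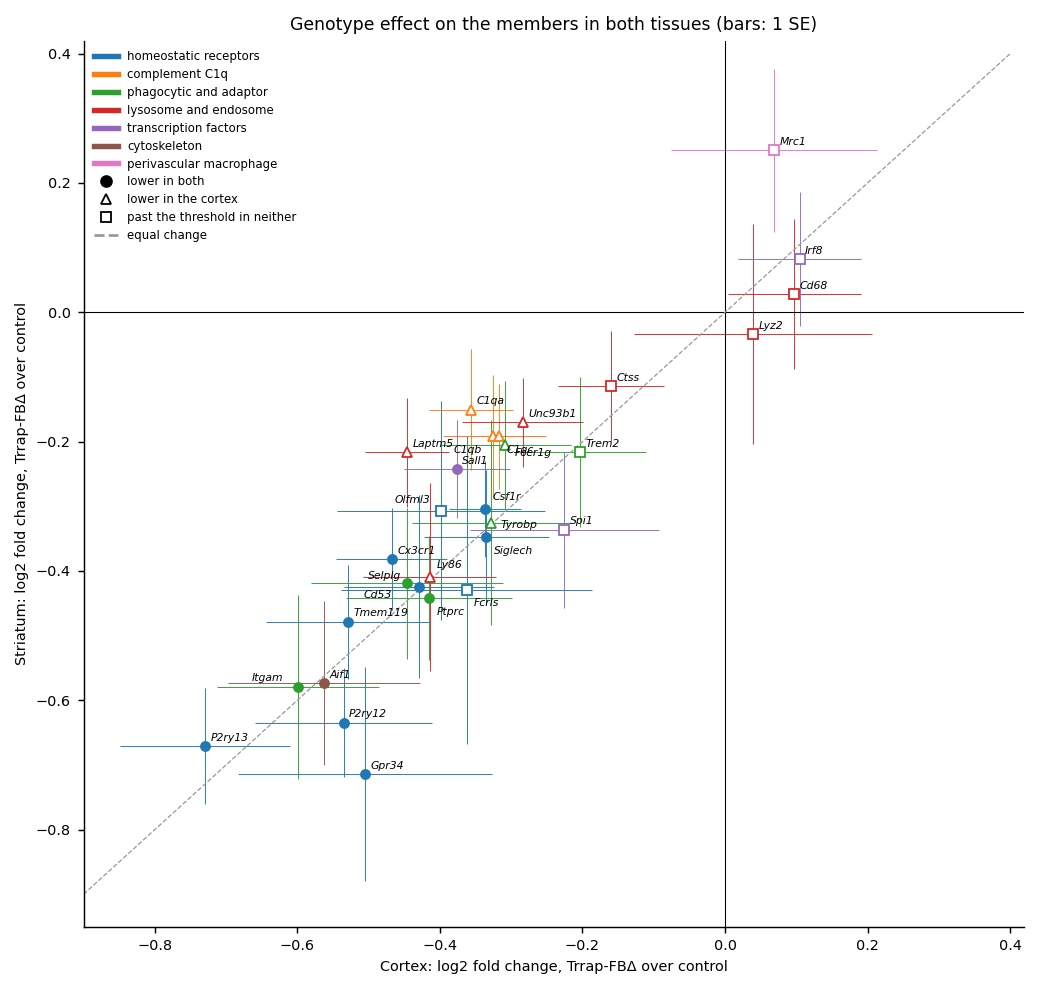
Log2 fold change (Trrap-FBΔ over control) of each member in the cortex against that in the striatum, with bars of 1 SE and colours by role. Filled circles are lower in both tissues, triangles in the cortex, and squares pass in neither; P2ry13, Gpr34, P2ry12, Itgam and Aif1 lie at the lower left, while Cd68, Lyz2, Irf8 and Mrc1 lie around 0.

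An interaction term, fitted to all 16 libraries, asked if the members answered differently to the genotype in the striatum and the cortex. No member passed with edgeR, DESeq2 or limma-voom, against 0.437% of 19438 genes with edgeR, and 1 member had an unadjusted p under 0.05. That member was Laptm5, whose difference (striatum minus cortex) was 0.23 on the log2 scale (SE 0.10, adjusted p = 0.37). The 8 genes lower in the cortex alone, which were the 3 C1q genes, Tyrobp, Fcer1g, Laptm5, Unc93b1 and Ly86, had differences from 0.0028 to 0.23 and adjusted p values from 0.37 to 0.999. A difference between the tissues in these genes was therefore not shown.

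Averaged over the genotypes, 8 members were lower in the striatum than in the cortex and 2 were higher. Of all genes 60.5% passed this comparison, 29.6% lower and 30.9% higher, so that the 26.7% of members called lower was not above the background. Selplg (-0.56), Tmem119 (-0.44), P2ry12 (-0.40), P2ry13 (-0.36), Laptm5 (-0.30), Irf8 (-0.26), Cx3cr1 (-0.23) and Csf1r (-0.22) were lower by these log2 fold changes, with adjusted p values from 5.7e-05 for Laptm5 to 0.0023 for Cx3cr1. Higher were Lyz2, by 0.41 (adjusted p = 0.0096), and Ptprc, by 0.18 (adjusted p = 0.037). Ptprc lost its call without any 1 of mice 57, 58, 59, 60, 63 and 65 (adjusted p up to 0.13). With the mouse as a replicate block 12 were lower, the added genes being Gpr34, Fcrls, Olfml3 and Itgam, and 3 were higher, the added gene being Mrc1. Without mouse 64, 13 were lower.

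A longer list of 47 other microglial genes also held no gene that rose. In the cortex 25 of 47 (53.2%) were lower (median log2 fold change -0.35), and 15 (31.9%) were lower in the striatum (median -0.24), where 15.8% of all genes were. The largest falls were those of Cd180, the Ly86 partner, at -0.79 in the cortex and -0.96 in the striatum (adjusted p = 0.00070 and 0.0035). The kinase gene Lyn fell by 0.44 and 0.42 (adjusted p = 0.0014 and 0.0041). Also lower in both tissues were Cd33, Slco2b1, Hpgds, Entpd1, Bin2, Lcp1, Lcp2, Apbb1ip and Coro1a.

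Among 12 neuronal ligands of microglia and their receptors, 5 were lower and 1 higher in the cortex, and 3 were lower in the striatum. This was 50% in the cortex, where 33.3% of all genes were called, and 25% in the striatum, against 30.2%. Il34, the neuronal ligand of CSF1R, stood at 39.6, 45.3, 44.4 and 46.0 CPM in control cortices and at 25.2, 24.6, 23.7 and 24.9 CPM in Trrap-FBΔ cortices. This was a log2 fold change of -0.83 (SE 0.06, adjusted p = 6.8e-06), larger than that of any member. In the striatum it stood at 20.9, 23.2, 26.6 and 16.5 CPM against 16.2, 15.1, 14.1 and 13.4 CPM (log2 fold change -0.57, SE 0.13, adjusted p = 0.0086), and the groups did not overlap. Csf1, the other ligand of the same receptor, had -0.13 (adjusted p = 0.17) and 0.03 (adjusted p = 0.90). Cd200, a neuronal surface protein that restrains microglia, fell by 0.53 and 0.46 (adjusted p = 0.00027 in both), whereas Cx3cl1, the ligand of CX3CR1, had 0.19 and -0.15 without passing (adjusted p = 0.12 and 0.34).

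Genes of activated and phagocytic microglia were called about as often as all genes, in 35.3% of those tested in the cortex against 33.3% and in 36.8% in the striatum against 30.2%. The list summed to 1754 to 1779 CPM in control cortices, where the 30 members summed to 597 to 659 CPM. In bulk tissue its RNA cannot be assigned to microglia. Of 22, 17 could be tested in the cortex, with 1 higher and 5 lower (median -0.054), and 19 in the striatum, with 3 higher and 4 lower (median -0.040). Ctsb, the protease cathepsin B, rose by 0.17 and 0.25 on the log2 scale (adjusted p = 0.030 and 0.0036). Lpl, lipoprotein lipase, fell by 0.27 and 1.01 (adjusted p = 0.033 and 0.0041), and Igf1 fell by 0.20 and 0.30 (adjusted p = 0.019 and 0.013). Also lower in both tissues were Cd9, a tetraspanin, and Fabp5, a fatty acid carrier. Lgals3, the gene of galectin-3, stood at 1.22 ± 0.166 and 1.32 ± 0.287 CPM in control and Trrap-FBΔ cortices, and at 1.95 ± 0.485 and 2.21 ± 0.128 CPM in the respective striata (adjusted p = 0.68 and 0.46).

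Of 13 border macrophage genes, a list that includes Mrc1, 1 was higher and 1 lower in the cortex, and 3 were higher and 1 lower in the striatum. This was 15.4% in the cortex, where 33.3% of all genes were called, and 30.8% in the striatum, against 30.2%. The list summed to 85.0 ± 12.7 and 79.8 ± 4.35 CPM in control and Trrap-FBΔ cortices. In the respective striata it summed to 102 ± 9.06 and 108 ± 2.86 CPM. Cd163, a haemoglobin scavenger receptor of perivascular macrophages, rose by 0.75 and 0.59 on the log2 scale (adjusted p = 0.014 and 0.0050), from 1.66 ± 0.372 to 2.82 ± 0.689 CPM in the cortex. In the complement cascade beyond C1q, none of 11 tested genes was lower, 1 (9.09%) was higher in the cortex and 4 (36.4%) were higher in the striatum. Of all genes tested, 15.7% were higher in the cortex and 14.4% in the striatum. C4b, which is cleaved downstream of C1q, rose from 3.98 ± 1.18 to 7.83 ± 1.07 CPM in cortical and from 5.48 ± 0.602 to 10.7 ± 0.475 CPM in striatal tissue (log2 fold changes 0.98 and 0.96, adjusted p = 0.0018 and 0.00014).

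Blood cells could add leukocyte RNA to the members. The 9 genes of monocytes and neutrophils summed to 0.775 to 2.27 CPM in control and 1.02 to 1.78 CPM in Trrap-FBΔ cortices, and to 0.955 to 1.34 and 1.16 to 2.11 CPM in the striata. The monocyte gene Ly6c2 was at 0 in the control cortices. The 8 lymphocyte genes summed to at most 12.8 CPM in any library, and Nkg7 was at 0 in every cortex. Of the first list 4 genes passed the filter on low counts in the cortex but 2 in the striatum, and of the second 1 in each tissue. None of these few was called. Red blood cell genes also gave 0 calls of 6 in each tissue. Genes of other cell types were also called, however. Of all genes tested, 17.6% were lower and 15.7% higher in the cortex, and 15.8% were lower and 14.4% higher in the striatum. All 10 oligodendrocyte lineage genes were lower in the cortex but 3 in the striatum. Their sums were 1975 to 3234 CPM in control and 1501 to 2149 CPM in Trrap-FBΔ cortices. The cortical count of 10 became 5 with all 16 libraries in 1 fit. Endothelial genes were lower in 7 of 10 and 2 of 10, with cortical sums of 215 to 259 and 195 to 212 CPM. The striatal count of 2 became 6 without control mouse 63, 0 without control mouse 64 or Trrap-FBΔ mice 59 or 60, and 1 without control mice 58 or 65 or Trrap-FBΔ mouse 57. Pan-neuronal genes were lower in 6 of 10 and 4 of 10, with cortical sums of 9271 to 10016 and 7367 to 7773 CPM. That list includes Tubb3, Stmn2, Nefl and Nefm, which the study lists among its top changed Sp1 targets, as RNA or as protein. Of 10 astrocyte genes, 2 fell and 2 rose in the cortex, and 1 fell and 2 rose in the striatum. Cortical excitatory markers were lower in 1 of 8 and 5 of 8, and striatal projection markers in 1 of 10 and 0 of 10. The part of these cell types in the result was not tested.

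**Figure D5:**
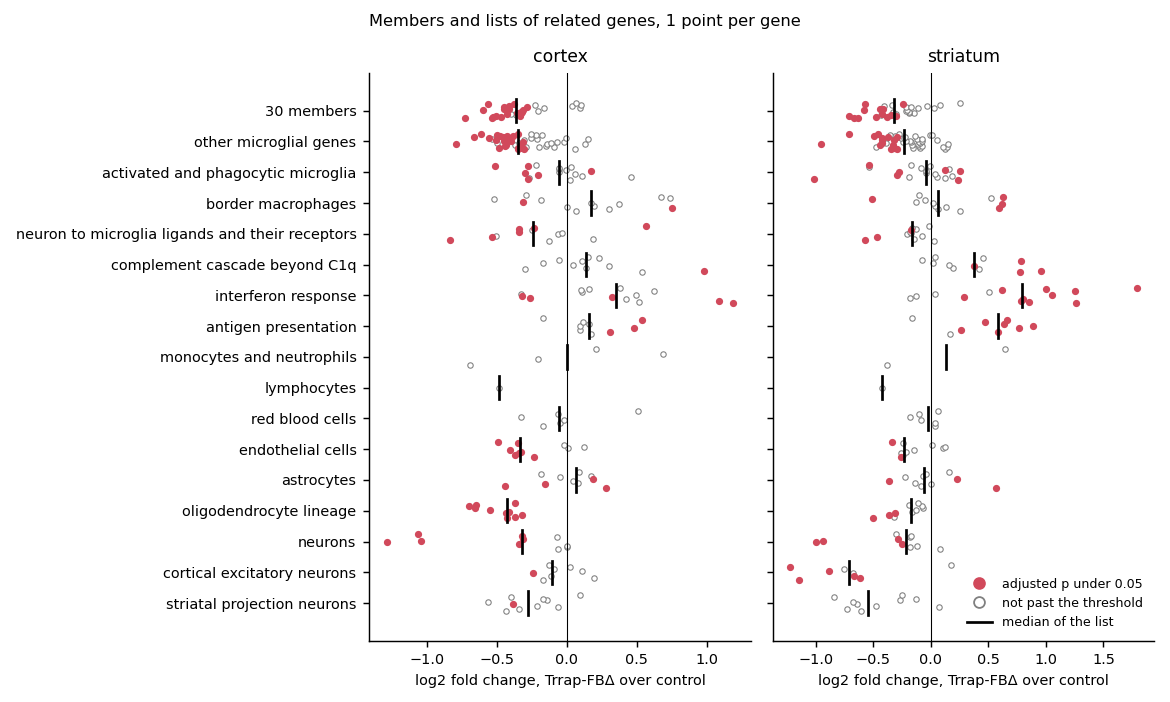
Log2 fold change (Trrap-FBΔ over control) of every tested gene of the members and of 16 related lists in each tissue, with filled points past an adjusted p of 0.05 and a vertical bar at the median of the list. The members and the 47 other microglial genes lie mostly left of 0 (medians -0.36 and -0.35 in the cortex), and the interferon genes lie right of it (medians 0.35 in the cortex and 0.79 in the striatum).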

How the data were processed

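RNA of 16 libraries was read with TruSeq Stranded mRNA chemistry as single-end reads. The authors demultiplexed with bcl2fastq 1.8.4, aligned to GRCm38 with STAR 2.5.4b and counted unique reads per gene on the matching strand with featureCounts 1.5.0, and the deposited values are these raw counts. Such counts leave out reads shared by near-identical genes. Total counts were 28743866 to 48761429 per library, and those of members 93 to 3637 per library, which limits the precision of the low genes.

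Symbols and coordinates came from the GENCODE M21 annotation of GRCm38. The 30 members, their roles, the 16 related lists and the motifs were chosen with earlier results of these data known. All members are named, and genes of the lists could be named if they passed in both tissues in the same direction or were among the 3 with the largest mean change. Csf1, Il34, Cx3cl1 and Lgals3 were added to these, some list genes are not reported here, and list counts stand in for list tests.

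In R 4.3.3, edgeR 4.0.16 was used with filterByExpr, TMM factors and the quasi-likelihood test, per tissue for the genotype and over all 16 libraries for the interaction and the tissue. Benjamini-Hochberg adjustment ran over all genes tested, with a threshold of 0.05. Printed 95% intervals are the log2 fold change ± 1.96 SE, so that some leave out 0 where the quasi-likelihood test does not pass. Printed CPM use TMM factors over all 16 libraries, and this differs from the scaling per tissue by at most 0.061 on the log2 scale. DESeq2 1.42.0, limma-voom (limma 3.58.1), other normalizations, sex as a covariate and left-out libraries were alternatives, and a test against a fold of 1.2 was added after the data were seen. Counts were simulated with 200 genes changed by more on the log2 scale than any member was. On these, edgeR recovered 85.0% in the cortex, 85.5% in the striatum, 74.0% of the interactions and 88.5% for the tissue. Of the calls, 5.56%, 9.04%, 6.92% and 3.80% were false. Recovery of changes as small as those of the members was not simulated.

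Libraries of the 2 tissues with 1 mouse number come from 1 animal in 7 of 9 mice. Their deviations from the group means correlated with r of 0.100 to 0.466, all 7 above 0.1, against -0.361 to 0.178 between mice. No libraries were duplicates (chi-square over degrees of freedom 7.56 to 40.4 in 24 pairs).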

Additional observations from a re-analysis of the deposited data

Results flagged for a closer look

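Of 124 groups of 4 libraries examined (30 members and their sum in 4 groups), 3 held a library far from the other 3 by Dixon's criterion, and chance alone marks about 1 group in 20. Selplg stood at 14.1 CPM in the Trrap-FBΔ cortex of mouse 57, above 11.0 to 11.3 CPM in the others. Trem2 stood at 8.30 CPM in the control cortex of mouse 64, below 8.97 to 9.01 CPM. Ly86 stood at 8.91 CPM in the Trrap-FBΔ striatum of mouse 59, above 6.51 to 6.89 CPM.

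Among the related lists, the interferon gene Mx1 differed between the tissues in its response to the genotype (interaction log2 difference 1.41, adjusted p = 0.032). It rose in the striatum from 0.323 ± 0.0847 to 1.12 ± 0.0346 CPM (log2 fold change 1.79), and its cortical values were 0.496 ± 0.0673 and 0.659 ± 0.120 CPM (log2 fold change 0.38, adjusted p = 0.19).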

How the results depend on the processing

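Over the alternatives fixed with the tests, 1035 values of members kept their direction and their side of the threshold, 58 lost a call, 19 gained one and 12 changed sign, and none of the sign changes was a called value. With 1 library left out, 16 to 22 members were lower in the cortex (16 without Trrap-FBΔ mouse 59) and 10 to 14 in the striatum (10 without control mouse 64, Trrap-FBΔ mouse 57 or Trrap-FBΔ mouse 61); 0 were higher in the cortex and 0 to 1 in the striatum, the 1 being Mrc1 without control mouse 65. When the change had to exceed a fold of 1.2, 4 members were lower in the cortex (P2ry13, Cx3cr1, Itgam and Laptm5) and 2 in the striatum (P2ry12 and P2ry13), as fewer genes pass such a test by construction. The striatum was higher than the cortex in 5 members with upper-quartile normalization, in 1 with no filter and in 1 with sex as a covariate, against 2 in the text. With 1 mouse left out that count was 1 to 3 and the count of lower members 8 to 13. The cause was not tested. The interaction gave 0 members under every alternative run, the replicate block included, whereas over all genes its count was 85 and became 195 with no filter, 430 with DESeq2, 219 with the block and 2 to 151 with 1 mouse left out. With the replicate block, pairing the tissues of a mouse, 12 members were lower in the striatum and 3 higher, and it ended no call. Sex as a covariate ended the calls on Csf1r, Itgam, Selplg and Sall1 in the striatum (adjusted p from 0.054 to 0.15) leaving 9, and on Gpr34 in the cortex (adjusted p = 0.055).

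Sign changes touched 3 genes with values near 0. In the cortex, omitting single libraries gave Lyz2 a log2 fold change of -0.098 to 0.20 (negative without control mouse 64 or Trrap-FBΔ mouse 61) and Mrc1 one of -0.056 to 0.19 (negative without control mouse 63 or Trrap-FBΔ mouse 60). In the striatum the value of Cd68 was -0.044 to 0.098 and that of Lyz2 -0.14 to 0.15. Lyz2 became -0.028 in the cortex with sex as a covariate. The endothelial count in the striatum was 0 to 6 with 1 library left out. The oligodendrocyte count in the cortex became 5 and the interferon count there 5 with all 16 libraries in 1 fit.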

Other observations

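Most interferon-stimulated genes and genes of antigen presentation were higher in the Trrap-FBΔ striatum, whereas fewer were in the cortex. Of all genes tested, 14.4% were higher in the striatum and 15.7% in the cortex. Of 14 interferon genes, 10 were higher in the striatum (median log2 fold change 0.79). In the cortex 3 were higher and 2 lower (median 0.35), and their summed level was 70.4 ± 2.72 CPM in controls and 64.4 ± 4.07 CPM in Trrap-FBΔ mice. The interaction called 1 of these 14 genes and 0 of 9 antigen presentation genes, so that a difference between the tissues was not shown for the rest. Ifit1, an RNA-binding antiviral protein, rose by 1.19 in the cortex and 1.26 in the striatum (adjusted p = 0.015 and 0.0070). Isg15, a ubiquitin-like modifier, rose by 1.09 and 0.79 (adjusted p = 0.0081 and 0.021). Both Ifit1 and Isg15 stayed below 2 CPM on average in every group.

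Of 9 antigen presentation genes, 7 were higher in the striatum (median 0.59), against 14.4% of all genes. In the cortex 3 were higher (median 0.16), against 15.7% of all genes, and none was lower in either tissue. The class I gene H2-D1 rose by 0.31 and 0.59 on the log2 scale (adjusted p = 0.0059 and 0.00018), and its striatal level went from 25.9 ± 1.67 to 38.9 ± 1.27 CPM. Cd74, the invariant chain of class II molecules, rose by 0.48 and 0.77 on the log2 scale (adjusted p = 0.020 and 0.0016), and the peptide transporter gene Tap1 by 0.54 and 0.66 (adjusted p = 0.019 and 0.00063). Gfap, an intermediate filament of astrocytes, was also higher in both tissues, by 0.28 and 0.57 (adjusted p = 0.021 and 0.00025).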
